A study of Mus musculus with 12 samples.

Results

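The genes described here are 35 immediate early genes, taken by name with no threshold on a measured value, and all 35 were among the 32285 genes measured. The measurements are counts of unique molecular identifiers (UMIs, 1 per captured transcript) from 10x single-cell RNA-seq of dissociated hippocampi of female C57/BL6J mice aged 9 weeks. Cisplatin stim mice were injected with the platinum chemotherapy cisplatin, which crosslinks DNA, and from the first injection received 40 Hz light flicker with sound pulses (GENUS, a sensory stimulation meant to entrain gamma rhythms) for 1 h daily over 21 days. Cisplatin nonstim mice had the drug alone, PBS stim mice had buffer injections with the same stimulation, and PBS nonstim mice had buffer injections alone. Each group held 3 libraries, of which replicate 1 came from 2 hippocampi of 1 mouse and replicates 2 and 3 each from 4 hippocampi of 2 mice, per the series' design text (the extraction protocol gives 2 mice for every library). All tissue was taken on day 22, perfused with cold buffer and dissociated with a neural tissue kit before capture. With mice pooled, p-values measure the spread between libraries, not between single mice.

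Immediate early genes are transcribed within minutes of a signal without new protein synthesis, because their promoters are already bound by factors such as SRF and CREB that kinases switch on. Many encode transcription factors (the Fos and Jun families that form AP-1, the Egr and Nr4a families), and many others limit the response that they belong to (the Dusp phosphatases, the Zfp36 proteins that bind mRNA for decay, Socs3). In the hippocampus they are best known as markers of neuronal firing, and enzymatic tissue dissociation is also known to induce them. A level in these libraries therefore holds what the cells carried in the tissue and what was added during dissociation, and these cannot be told apart here.

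In all, 19834 cells were measured in 12 libraries of 611 to 2772 cells (3964338 to 17656020 UMIs per library), and the deposited labels place the cells in 12 types. Each of the 12 marker lists was highest in the type of its name, and 56 cell barcodes occurred in more than 1 library (112 cells, 0.565%). The replicate 1 libraries stood apart. Their median mitochondrial share per cell was 10.7 to 17.6%, against 3.19 to 5.12% in replicates 2 and 3. A second measure split the drug groups: ribosomal RNA-like transcripts (Gm42418, AY036118 and Lars2) took 0.417 to 0.782% of UMIs in the replicate 2 and 3 libraries of cisplatin mice, against 1.87 to 3.65% in those of PBS mice. Results are therefore given below also with that share as a covariate and in replicates 2 and 3 alone. In replicates 2 and 3 the share went with the drug. A drug call lost with the covariate therefore does not tell the 2 apart. Levels are a gene's UMIs scaled to the summed UMIs of a library's cells of 1 type (CPM), and a sum over cells does not tell more cells with a transcript from more transcript per cell. The marker lists did not set all types cleanly apart. Endothelial markers summed to 8129 to 10570 CPM in pericytes, against 13350 to 15330 CPM in endothelium. Microglial markers summed to 9545 to 21930 CPM in the cells labelled immune, against 19660 to 24580 CPM in microglia. The part of this in the pericyte and immune levels below was not tested.

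Microglia carried the highest levels. The 35 genes together took a median of 4.37% of microglial UMIs over the 12 libraries (3.38 to 4.59%). The median was 2.64% in pericytes, 2.40% in the cells labelled immune, which also carried microglial markers, and 2.23% in endothelium. The share was 0.684% in oligodendrocyte precursors (OPC), 0.645% in oligodendrocytes, 0.206% in neurons, 0.170% in astrocytes and 0.0647% in choroid plexus. Without Btg1, Jund and Zfp36l1, taken as those least tied to induction, the share was 2.88 to 3.97% in microglia. It was then 0.0722 to 0.198% in astrocytes (0.136 to 0.279% with all 35). In choroid plexus it was 0.0213 to 0.177% (0.0551 to 0.249% with all 35). With all 35 genes, the ranges over libraries of microglia and of oligodendrocytes did not overlap, whereas those of endothelium and pericytes did. The range of pericytes (1.81 to 4.03%) also overlapped that of microglia (3.38 to 4.59%). Cell types and clusters were made from these same cells and genes, so these orders are a description with no test.

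**Figure D1:**
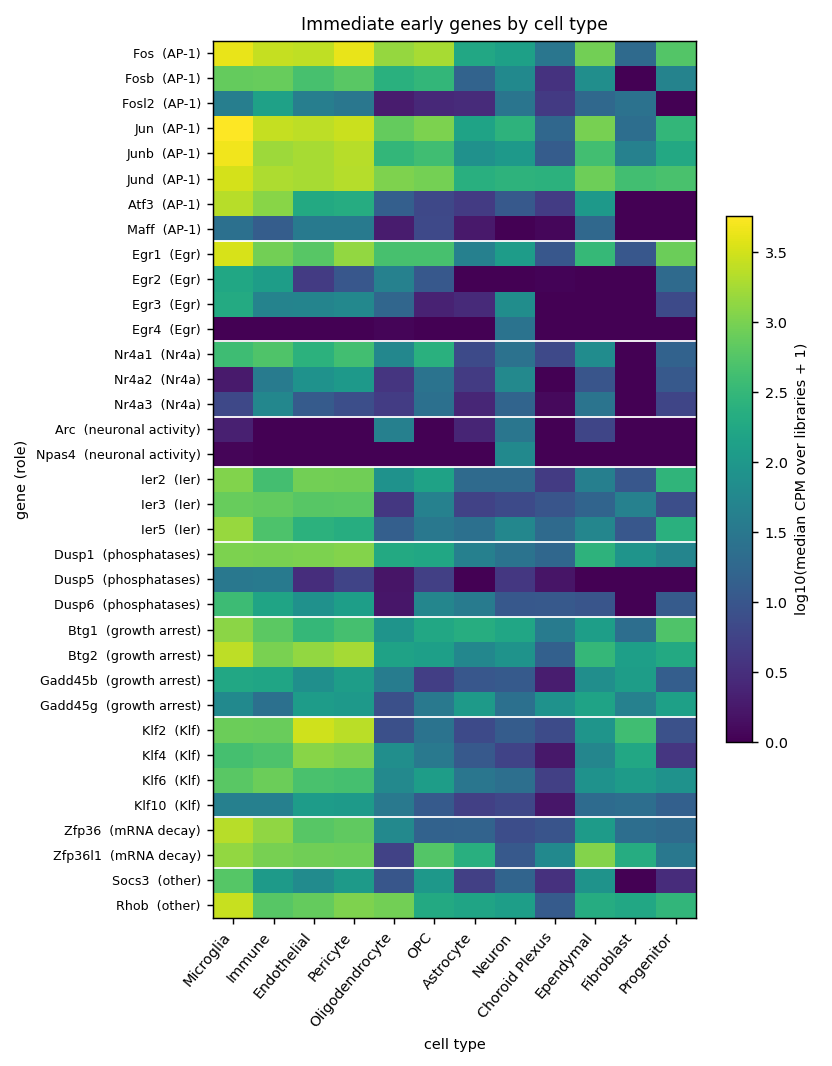
Median level over libraries of each of the 35 genes (rows, grouped by role) in each of 12 cell types (columns), as log10 of CPM plus 1. Microglia have the highest median for 19 genes, and only Npas4 and Egr4 are highest in neurons.

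By gene, 19 of the 35 had their highest median in microglia, 6 in immune cells, 3 in pericytes, 3 in endothelium, 2 in neurons, and 1 each in oligodendrocytes and ependymal cells. A first place by median does not by itself set a type apart from the next, and several were near ties. Among the AP-1 genes, Fos had a median of 4267 CPM in microglia and 4258 CPM in pericytes, and microglia were the higher in 6 of the 11 libraries with both types, so these neighbours do not differ beyond their spread. Fos was at 2525 CPM in endothelium, 1818 CPM in OPC, 1465 CPM in oligodendrocytes, 176 CPM in astrocytes and 28.9 CPM in choroid plexus. Jun, the main partner of Fos, reached 5732 CPM in microglia and 2851 CPM in pericytes, and was higher in microglia in 11 of 11 libraries. Junb (4752 CPM) and Jund (3269 CPM) were likewise highest in microglia, Fosb (772 CPM) and Fosl2 (143 CPM) in immune cells, and Maff in pericytes (34.5 CPM, with 34.0 CPM in endothelium). Fosb was higher in immune cells than in microglia in only 6 of 12 libraries, and Maff in pericytes than in endothelium in 5 of 11. Atf3, a stress-induced member of the ATF family, was at 2232 CPM in microglia, 1235 CPM in immune cells and 192 CPM in endothelium.

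Egr1, a zinc finger factor, was at 3397 CPM in microglia, 1401 CPM in pericytes and 118 CPM in neurons. Egr2 and Egr3 were also highest in microglia (171 and 200 CPM), whereas Egr4 had a median of 26.2 CPM in neurons and of at most 0.132 CPM in every other type. Of the nuclear receptors, Nr4a1 and Nr4a3 were highest in immune cells (522 and 53.1 CPM) and Nr4a2 in pericytes (105 CPM). Nr4a1 had 534, 920 and 482 CPM in Cisplatin stim, 389, 497 and 738 CPM in Cisplatin nonstim, 255, 560.0 and 716 CPM in PBS stim, and 511, 428 and 682 CPM in PBS nonstim immune cells, so that all 4 groups overlapped. Klf2 and Klf4, which endothelial cells induce under blood flow, were highest in endothelium at 3075 and 1240 CPM. Klf6 was highest in immune cells (817 CPM) and Klf10 in endothelium (120 CPM). Of the genes that restrain the response, Zfp36 (2238 CPM), Dusp6 (373 CPM) and Socs3 (587 CPM) were highest in microglia, Dusp1 in pericytes (1158 CPM) and Dusp5 in immune cells (32.7 CPM). Dusp1 was at 1053 CPM in endothelium, with pericytes higher in 6 of 11 libraries. Dusp5 was at 31.3 CPM in microglia, with immune cells higher in 6 of 12. Ier2, Ier3 and Ier5 (1103, 764 and 1525 CPM) and the growth arrest genes Btg1, Btg2 and Gadd45b (1260, 2435 and 180 CPM) were highest in microglia, whereas Gadd45g was highest in ependymal cells (148 CPM). Zfp36l1 was at 1387 CPM in microglia, 1141 CPM in ependymal cells and 4.43 CPM in oligodendrocytes. Rhob, a small GTPase of endosomes, was at 2813 CPM in microglia and 897 CPM in oligodendrocytes.

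Npas4 and Arc, the genes best known for neuronal activity, differed in where they were found. Npas4, a factor that neurons induce on calcium entry, was detected in 7.91% of neurons. Cells with at least 2000 UMIs (776 of 1074 neurons) were also thinned to 2000 UMIs each, and shallower cells were left out. Npas4 was then detected in 5.93% of neurons and in at most 0.741% of the thinned cells of any other type. Of its 277 UMIs, 258 were in neurons, and it was highest in the authors' neuronal cluster 12, at a median of 125 CPM. Arc, a capsid-forming protein of the synapse, had its highest median in oligodendrocytes, at 42.4 CPM against 28.8 CPM in neurons, and oligodendrocytes were the higher in 9 of 12 libraries. An Arc UMI was found in 7.19% of thinned oligodendrocytes and 4.90% of thinned neurons, but in 0.262% of microglia, 0.388% of astrocytes and 0.296% of OPC. The raw shares were 20.5% of oligodendrocytes, 6.89% of neurons and 0.574% of microglia, at median depths of 7157, 3132 and 6122 UMIs per cell. The share in oligodendrocytes was above that in microglia. Neuronal marker genes summed to 8.08 to 39.0 CPM in oligodendrocytes, against 2969 to 21200 CPM in neurons. The part of transcripts from other cells in these Arc levels was not tested.

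Cells of 1 type differed among themselves. In the authors' microglial clusters 0 and 5 the 35 genes summed to medians of 48880 and 25250 CPM, and in the immune clusters 15 and 14 to 32670 and 1681 CPM. Oligodendrocyte cluster 7 was at 12230 CPM, cluster 8 at 5974 CPM and cluster 2 at 2761 CPM, and Fos alone was at 3848 CPM in cluster 7 against 193 CPM in cluster 2. Cluster 7 also had a lower median depth (3493 UMIs per cell, against 6916 in cluster 2) and a higher median mitochondrial share (11.1 against 5.78%). The part of depth and mitochondrial share in these levels was not tested. Among cells with at least 2000 UMIs, thinned to 2000, a median microglial cell had UMIs of 18 of the 35 genes. The median was 13 in endothelial cells, 4 in oligodendrocytes and 2 in neurons.

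**Figure D2:**
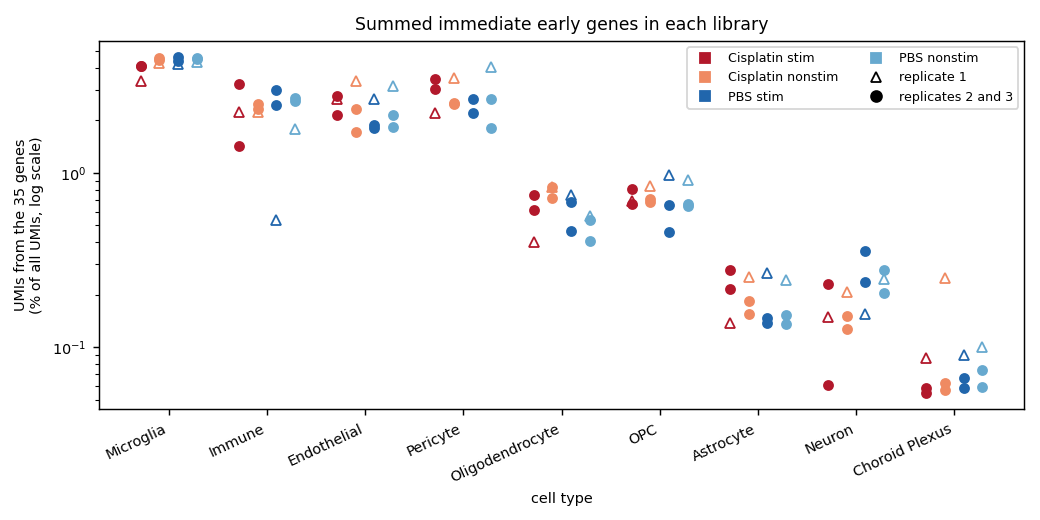
Share of all UMIs that came from the 35 genes (percent, log scale) in each library, for 9 cell types, coloured by group, with replicate 1 as open triangles and replicates 2 and 3 as filled circles. In oligodendrocytes the 3 Cisplatin nonstim libraries (0.715 to 0.827%) lie above the 3 PBS nonstim libraries (0.409 to 0.568%), and in endothelium replicate 1 (2.65 to 3.35%) overlaps only the top of the rest (1.72 to 2.76%).

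Differences between groups were tested on summed UMIs per library and cell type with edgeR, in 9 cell types with enough cells. Of the 35 genes, 31 passed the filter on low counts in microglia, 30 in oligodendrocytes and endothelium, 29 in immune cells and pericytes, 23 in astrocytes, neurons and OPC, and 16 in choroid plexus, 234 pairs of gene and type in all. All 35 were tested in at least 1 type and 10 in all 9. A pair was called at an adjusted p under 0.05, with p-values adjusted over all genes of that type and comparison.

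Oligodendrocytes, the cells that make myelin, carried more of several immediate early genes after cisplatin without stimulation. In Cisplatin nonstim against PBS nonstim mice, 10 of the 30 genes tested there rose and none fell, against 3.33% of all 10094 genes called higher. The 10 were Dusp1, Nr4a1, Socs3, Junb, Fosb, Klf4, Ier2, Btg2, Jund and Jun. All 30 log2 fold changes were above 0, with a median of 0.62 against 0.0039 over all genes tested. An unadjusted p under 0.05 was found for 18 of the 30, against 2162 of the 10094 genes of any kind. Over all 9 types 14 of 234 pairs were called higher and 2 lower, against 0.937% and 0.707% of 69488 pairs of any gene. All 16 were also called in replicates 2 and 3 alone. None was called once the ribosomal RNA-like share was a covariate, although all 16 kept their sign, and the part of that share was not tested further.

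Dusp1, a phosphatase that switches off MAP kinases, had 287, 365 and 325 CPM in the 3 Cisplatin nonstim libraries, against 142, 82.6 and 134 CPM in the 3 PBS nonstim libraries (replicates 1, 2 and 3). The drug libraries were all higher and the groups did not overlap. The log2 fold change was 1.5 ± 0.27 (SE), with an edgeR adjusted p of 0.00268, and of 0.138 with the covariate. Nr4a1, an orphan nuclear receptor, had 86.0, 72.1 and 79.8 CPM in Cisplatin nonstim oligodendrocytes, against 42.6, 35 and 43.7 CPM in PBS nonstim oligodendrocytes. Again the groups did not overlap, and the log2 fold change was 1.01 ± 0.19 (edgeR adjusted p = 0.00365, and 0.127 with the covariate). Of the 10 calls in oligodendrocytes, these 2 held with each of the 12 libraries left out in turn. With DESeq2 in place of edgeR, Dusp1, Nr4a1 and Jund were called (adjusted p = 0.0268, 0.000302 and 0.0180) and the other 7 were not. Genes overlap Dusp1 (Ergic1), Junb (Prdx2) and Jun (Junos) on the opposite strand, and whether counting used strand is not given in the labels.

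Junb, an AP-1 subunit, had 423, 408 and 325 CPM in Cisplatin nonstim oligodendrocytes, against 203, 138 and 195 CPM in PBS nonstim oligodendrocytes, a log2 fold change of 1.17 ± 0.25 (edgeR adjusted p = 0.00871). The groups did not overlap, but the call was lost without Cisplatin nonstim replicate 2 (adjusted p = 0.0569) or PBS nonstim replicate 2 (0.0563). Socs3, which restrains cytokine signalling through JAK and STAT, was low and uneven, at 31.8, 21.1 and 2.63 CPM in Cisplatin nonstim oligodendrocytes, against 7.75, 2.12 and 4.85 CPM in PBS nonstim oligodendrocytes. Its groups overlapped through replicate 3, and the call (log2 fold change 2.02 ± 0.42, edgeR adjusted p = 0.00732) was lost without Cisplatin nonstim replicate 2 (adjusted p = 0.111). The other 6 rose by log2 fold changes of 1.36 (Fosb), 1.15 (Klf4), 1.08 (Ier2, of unknown biochemical function), 0.97 (Btg2, which slows the cell cycle), 0.69 (Jun) and 0.44 (Jund). Each of these 6 lost its call without PBS nonstim replicate 2, with adjusted p of 0.102 to 0.189, and Jund was lower in Cisplatin nonstim than in PBS nonstim replicate 1 (1012 and 1058 CPM). With the replicate number as a block, Jun was no longer called (edgeR adjusted p = 0.0611) and the other 9 were. Fos and Egr1 were not called, at log2 fold changes of 0.92 and 0.77 with edgeR adjusted p of 0.0906 and 0.085.

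**Figure D3:**
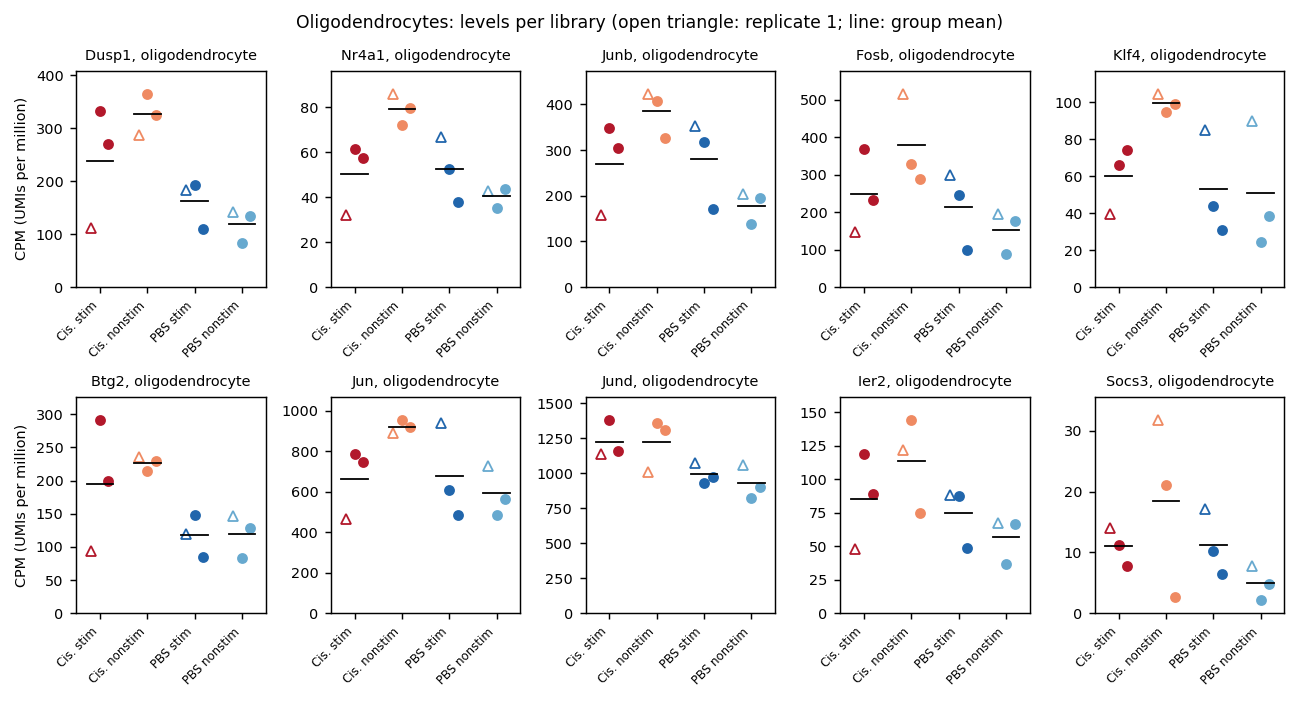
Level of 10 immediate early genes in oligodendrocytes (CPM) in each library of the 4 groups, with replicate 1 as open triangles, replicates 2 and 3 as filled circles and the group mean as a line. Dusp1 reads 287 to 365 CPM in Cisplatin nonstim libraries and 82.6 to 142 CPM in PBS nonstim libraries, with Cisplatin stim libraries spread from 112 to 333 CPM.

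The rise was also seen within single oligodendrocyte clusters of the authors, a check chosen after seeing the data. In cluster 2, 8 of 22 genes tested were called higher (background 2.74%), in cluster 7, 9 of 24 (1.68%), and in cluster 8, 3 of 21 (1.33%). Dusp1, Fosb and Junb were called in all 3 clusters, with Dusp1 at log2 fold changes of 1.77, 1.29 and 1.42 (edgeR adjusted p = 2.63e-08, 0.000144 and 0.00858). Fos was called in cluster 2, at 1.46 (edgeR adjusted p = 0.00859). Cluster 7, the one with the highest levels, made up 26.8 to 47.3% of oligodendrocytes in Cisplatin nonstim libraries and 18.9 to 43.4% in PBS nonstim libraries. Microglial markers, all 6 detected, summed to 53.9 to 156 CPM in Cisplatin nonstim oligodendrocytes and 52.8 to 102 CPM in PBS nonstim oligodendrocytes, against 19660 to 24580 CPM in microglia.

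Promoters of the 35 genes were searched for the sites of several factors, among them CREB, a factor that cAMP and calcium signals activate. RefSeq windows from 250 bases before to 50 after the start (GRCm38.p6) matched 30 of the 35 genes with 36 windows, since Egr2 has 5 and Maff 3, some of which overlap. A gene is counted as holding a motif, searched on both strands, where any of its windows does. The CRE half-site TGACG was held by 17 of the 30 genes (56.7%), against 23.0% of 27025 genes of any kind. Counted by window it was in 20 of 36 (55.6%), against 20.8% of 32851 windows. It was held by 6 of the 9 genes with a window that were called in oligodendrocytes and by 11 of the 21 others, so it was not confined to genes that rose. The difference between these shares was not tested. The full CRE, TGACGTCA, which holds a half-site on each strand, was held by 3 of the 30 genes (Btg2, Dusp1 and Maff), against 2.03% of all genes. An Egr site, GCGNGGGCG, was held by 11 of 30 (36.7%) against 6.27% of all genes, a CArG box, the site of SRF, by 3 of 30 against 1.81%, an AP-1 site, TGANTCA, by 1 of 30 against 8.97%, and the Nr4a site AAAGGTCA by 0 of 30 against 1.70%. The windows of these genes were richer in G and C than all windows (median 64.2 against 52.7%), and a match of letters is not a bound site. Capitals mark each half-site in the windows of 5 genes that rose in oligodendrocytes and of Npas4. The 5 were picked among those that hold the site. The windows of Jun, Jund and Socs3, which also rose, hold no half-site and are not shown.
Dusp1, chr17:26508423-26508722, minus strand: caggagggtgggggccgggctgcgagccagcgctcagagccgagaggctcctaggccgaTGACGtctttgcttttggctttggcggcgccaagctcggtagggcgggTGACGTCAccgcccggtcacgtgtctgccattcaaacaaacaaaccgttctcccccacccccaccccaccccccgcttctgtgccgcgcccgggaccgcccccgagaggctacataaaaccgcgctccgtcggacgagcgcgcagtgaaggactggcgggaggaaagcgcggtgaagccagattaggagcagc
Nr4a1, chr15:101266596-101266895, plus strand: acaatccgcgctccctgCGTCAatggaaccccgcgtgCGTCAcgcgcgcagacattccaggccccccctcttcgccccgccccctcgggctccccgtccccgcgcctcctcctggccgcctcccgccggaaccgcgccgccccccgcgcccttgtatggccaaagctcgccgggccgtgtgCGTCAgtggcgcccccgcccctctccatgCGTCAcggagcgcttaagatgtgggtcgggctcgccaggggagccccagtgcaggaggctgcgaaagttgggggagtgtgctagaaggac
Junb, chr8:84978699-84978998, minus strand: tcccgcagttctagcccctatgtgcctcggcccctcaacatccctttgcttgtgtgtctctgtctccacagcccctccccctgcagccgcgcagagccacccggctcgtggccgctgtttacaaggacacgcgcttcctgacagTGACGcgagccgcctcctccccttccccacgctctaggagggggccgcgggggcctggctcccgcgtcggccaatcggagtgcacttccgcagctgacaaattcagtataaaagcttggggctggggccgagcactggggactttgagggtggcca
Fosb, chr7:19309996-19310295, minus strand: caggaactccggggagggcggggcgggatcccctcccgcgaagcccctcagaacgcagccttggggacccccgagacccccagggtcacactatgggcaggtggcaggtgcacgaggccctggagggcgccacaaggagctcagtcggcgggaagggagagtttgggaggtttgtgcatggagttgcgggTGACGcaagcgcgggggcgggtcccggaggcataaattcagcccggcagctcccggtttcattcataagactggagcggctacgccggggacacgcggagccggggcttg
Btg2, chr1:134079106-134079405, minus strand: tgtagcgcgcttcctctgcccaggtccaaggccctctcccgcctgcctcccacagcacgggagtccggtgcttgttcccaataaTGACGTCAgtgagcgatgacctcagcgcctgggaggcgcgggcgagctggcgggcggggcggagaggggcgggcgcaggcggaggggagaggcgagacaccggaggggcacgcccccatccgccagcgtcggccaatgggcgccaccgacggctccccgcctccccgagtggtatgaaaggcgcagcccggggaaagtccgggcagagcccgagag
Npas4, chr19:4989922-4990221, minus strand: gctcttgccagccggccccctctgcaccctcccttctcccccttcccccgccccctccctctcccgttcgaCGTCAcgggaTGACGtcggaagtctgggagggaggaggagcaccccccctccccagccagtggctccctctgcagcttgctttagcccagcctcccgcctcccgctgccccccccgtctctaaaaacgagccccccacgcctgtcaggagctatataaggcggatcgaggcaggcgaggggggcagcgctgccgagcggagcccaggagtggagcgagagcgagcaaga

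In microglia the same comparison gave 2 falls in the Egr family. Egr3 had 205, 116 and 113 CPM in Cisplatin nonstim microglia, against 326, 340.2 and 369 CPM in PBS nonstim microglia (replicates 1, 2 and 3). The drug libraries were all lower and the groups did not overlap, with a log2 fold change of -1.31 ± 0.21 (edgeR adjusted p = 0.00148). Egr2 had 150, 139 and 117 CPM in Cisplatin nonstim microglia, against 229, 193 and 226 CPM in PBS nonstim microglia. Its groups did not overlap either, at a log2 fold change of -0.67 ± 0.12 (edgeR adjusted p = 0.00260). Both calls held with each of the 12 libraries left out, and both were lost with the covariate (adjusted p = 0.172 and 0.225). The background was 1.38% of 9903 genes called lower and 2.21% called higher, and 2 of the 31 genes tested were called in each direction. The best known members were not called and their groups overlapped. Fos had 3821, 4543 and 4643 CPM in Cisplatin nonstim microglia, against 4134, 4907 and 4663 CPM in PBS nonstim microglia. Jun had 4857, 5744 and 6094 CPM in Cisplatin nonstim and 5719, 6273 and 6102 CPM in PBS nonstim microglia. Egr1 had 3014, 3193 and 3340 CPM in Cisplatin nonstim and 3104, 4057 and 4113 CPM in PBS nonstim microglia. Each of the 3 genes was lower with cisplatin in every same-numbered pair of libraries. With the replicate number as a block they remained uncalled, at log2 fold changes of -0.08 for Fos, -0.12 for Jun and -0.22 for Egr1 (edgeR adjusted p = 0.773, 0.577 and 0.321).

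The 2 that rose in microglia were Socs3 (692 ± 11.5 CPM in Cisplatin nonstim and 503 ± 114 CPM in PBS nonstim, SD, n = 3 each; log2 fold change 0.49, edgeR adjusted p = 0.0227) and Ier2 (0.51, edgeR adjusted p = 0.0250). Both calls were lost without replicate 2 or 3 of either group, with adjusted p up to 0.163 for Socs3 and 0.153 for Ier2. Socs3 was called in endothelium as well, at 0.74 ± 0.18 (edgeR adjusted p = 0.0413), with overlapping groups, 1 of 30 genes against 0.552% of all. In pericytes, which wrap capillaries, Ier3, a gene that limits apoptosis, was the 1 of 29 called (0.90 ± 0.18, edgeR adjusted p = 0.0279), against 0.152% of all genes called higher. It had 694, 627 and 712 CPM in Cisplatin nonstim pericytes, against 565, 333 and 245 CPM in PBS nonstim pericytes, without overlap. The Ier3 call was lost without any of 6 libraries, with adjusted p up to 0.351 (without Cisplatin nonstim replicate 3), and the endothelial Socs3 call without any of 8, up to 0.276 (without PBS nonstim replicate 2). Astrocytes, neurons, OPC, immune cells and choroid plexus had no called gene, with 16 unadjusted p under 0.05 among their 114 pairs. These were 2 of 23 in astrocytes (1060 of 10163 genes of any kind) and 5 of 23 in neurons (744 of 6561). The others were 3 of 23 in OPC (759 of 7684), 3 of 29 in immune cells (174 of 2395) and 3 of 16 in choroid plexus (1846 of 7952).

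Under stimulation the drug comparison gave calls that were in part the same. Egr2, Egr3 and Ier2 in microglia, Socs3 in endothelium and Ier3 in pericytes were called in both comparisons, in the same direction. In Cisplatin stim against PBS stim mice 9 pairs were called higher and 9 lower, against 2.16% and 1.73% of 69488 pairs of any gene. Of these 18, 12 were called in replicates 2 and 3 alone, and 3 stayed called with the covariate. Atf3 in microglia, Ier3 in endothelium and Maff in oligodendrocytes held with each library left out, and the other 15 did not. Microglia held 9 of the 18, with 7 of 31 genes lower against 2.08% of all genes, and 2 higher against 3.16%. The 7 were Atf3, Egr3, Fos, Klf2, Jun, Btg1 (which slows the cell cycle) and Egr2, and the 2 were Ier2 and Fosl2. With the replicate number as a block Egr2 was no longer called (edgeR adjusted p = 0.0560) and Ier3 was, as higher (0.44, adjusted p = 0.0433). With cells over 10% mitochondrial UMIs left out, Jun, Btg1 and Egr2 were not called (edgeR adjusted p = 0.0509, 0.0537 and 0.0829).

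Atf3 had 1334, 1301 and 1484 CPM in Cisplatin stim microglia, against 2295, 2720 and 2171 CPM in PBS stim microglia. The groups did not overlap and the log2 fold change was -0.81 ± 0.14 (edgeR adjusted p = 0.000957), a call that was lost with the covariate (adjusted p = 0.0597). Egr3 had 86.4, 125 and 180 CPM in Cisplatin stim microglia, against 403, 278 and 195 CPM in PBS stim microglia, without overlap (log2 fold change -1.01 ± 0.23, edgeR adjusted p = 0.0117). That call was lost without replicate 1 or replicate 2 of either group, with adjusted p up to 0.0804. Fos had 2096, 3722 and 3600 CPM in Cisplatin stim microglia, against 3668, 4446 and 4400 CPM in PBS stim microglia. The groups overlapped through PBS stim replicate 1, and the log2 fold change of -0.44 ± 0.11 (edgeR adjusted p = 0.0212) was not called in replicates 2 and 3 alone (-0.28, adjusted p = 0.154). Jun behaved alike, at 3222, 5210 and 5580 CPM in Cisplatin stim and 5024, 6450 and 6631 CPM in PBS stim microglia (-0.39 ± 0.10, edgeR adjusted p = 0.0323). Egr1 did not pass, at 2036, 3598 and 3453 CPM in Cisplatin stim and 2812, 3933 and 3714 CPM in PBS stim microglia. Within microglial cluster 0 alone, 8 of 31 genes were called lower, against 1.64% of all genes, and the 8 were these 7 and Fosb, with 2 higher (Fosl2 and Ier2) against 2.56%. Within cluster 5 alone none of 28 was called in either direction, against 0.293% of all genes lower and 1.01% higher, and the median log2 fold change was 0.0035.

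In oligodendrocytes 2 of 30 genes were called higher (7.03% of all genes) and 1 lower (7.49%), shares near the background. Maff, a small partner of AP-1 factors, had 10.6, 17.2 and 8.76 CPM in Cisplatin stim oligodendrocytes (22, 29 and 19 UMIs), against 0, 1.06 and 0.403 CPM in PBS stim oligodendrocytes (0, 3 and 1 UMIs). The groups did not overlap, and the fitted log2 fold change of 4.20 ± 0.72 (edgeR adjusted p = 0.000429) rests on those few PBS stim UMIs. The call held with the covariate. Arc, the gene with its highest median in this cell type, had 19.3, 34.9 and 33.2 CPM in Cisplatin stim oligodendrocytes, against 79.8, 49.3 and 42.7 CPM in PBS stim oligodendrocytes. Its groups did not overlap and its log2 fold change was -0.89 ± 0.22 (edgeR adjusted p = 0.0104), but it was not called in replicates 2 and 3 alone (adjusted p = 0.0845), or without Cisplatin stim replicate 1 (0.0603) or PBS stim replicate 1 (0.0543). In the nonstimulated groups Arc had 56.7, 42.0 and 44.7 CPM with cisplatin and 57.0, 41.6 and 41.9 CPM with PBS, groups that overlapped. Btg1 was higher by 0.55 (edgeR adjusted p = 0.0491), with overlapping groups. Dusp1 and Nr4a1, called in nonstimulated mice, had log2 fold changes of 0.56 and 0.01 here (edgeR adjusted p = 0.193 and 0.983), although Dusp1 was called within clusters 2 and 7 alone (0.89 and 0.68, adjusted p = 0.00398 and 0.0391).

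Ier3 rose in both vascular types. The cells labelled pericytes also carried endothelial markers, so the 2 results may not be of separate cell types. Ier3 had 1518, 831 and 670.2 CPM in Cisplatin stim endothelium, against 328, 453 and 256 CPM in PBS stim endothelium, without overlap (log2 fold change 1.39 ± 0.22, edgeR adjusted p = 0.000978). The call held with the covariate (adjusted p = 0.0044). In pericytes Ier3 had 1211, 799 and 842 CPM in Cisplatin stim libraries, against 331 and 343 CPM in PBS stim replicates 2 and 3, since PBS stim replicate 1 had too few pericytes (1.31 ± 0.22, edgeR adjusted p = 0.00348; adjusted p = 0.0906 without PBS stim replicate 3). It was the 1 pericyte gene called of 29, against 0.334% of all genes. Endothelium also gained Fosb and Socs3, so that 3 of 30 were called against 1.69% of all genes, and both were lost with the covariate (adjusted p = 0.444 and 0.317). Fosb in endothelium had 475, 836 and 620.1 CPM in Cisplatin stim and 480, 230 and 213 CPM in PBS stim libraries, so that replicate 1 showed no rise.

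Astrocytes and neurons each had 1 call. Rhob had 233, 237 and 213 CPM in Cisplatin stim astrocytes, against 127, 155 and 155 CPM in PBS stim astrocytes, without overlap (log2 fold change 0.67 ± 0.14, edgeR adjusted p = 0.00739, 1 of 23 genes against 1.38% of all). The call was lost without Cisplatin stim replicate 1 (adjusted p = 0.0732) or PBS stim replicate 1 (0.0537). Npas4 had 17.5, 12.4 and 6.87 CPM in Cisplatin stim neurons, against 63.7, 63.0 and 132 CPM in PBS stim neurons. The Cisplatin stim libraries were all lower, and the log2 fold change was -2.22 ± 0.47 (edgeR adjusted p = 0.0193, 1 of 23 genes against 0.305% of all called lower). The counts behind it were small, at 12, 2 and 1 Npas4 UMIs in Cisplatin stim and 19, 22 and 45 in PBS stim neurons, and the call was lost without replicate 1 or 2 of Cisplatin stim or replicate 2 or 3 of PBS stim (adjusted p up to 0.151). DESeq2 gave Npas4 no adjusted p. The makeup of the neurons moved with it. Cluster 12, where Npas4 was highest, was 17.6 to 38.5% of neurons in Cisplatin stim libraries and 29.0 to 57.7% in PBS stim libraries, and the 6 neuronal markers, none at 0, summed to 2969 to 4963 and 6618 to 11740 CPM. Within cluster 12 the summed Npas4 level was 48.0 CPM in 59 Cisplatin stim cells and 164 CPM in 105 PBS stim cells, a value with no test, and the part of the neuronal makeup was not tested further. In nonstimulated mice Npas4 had 74.8, 31.4 and 57.4 CPM in Cisplatin nonstim and 91.4, 89.1 and 47.1 CPM in PBS nonstim neurons, groups that overlapped.

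**Figure D4:**
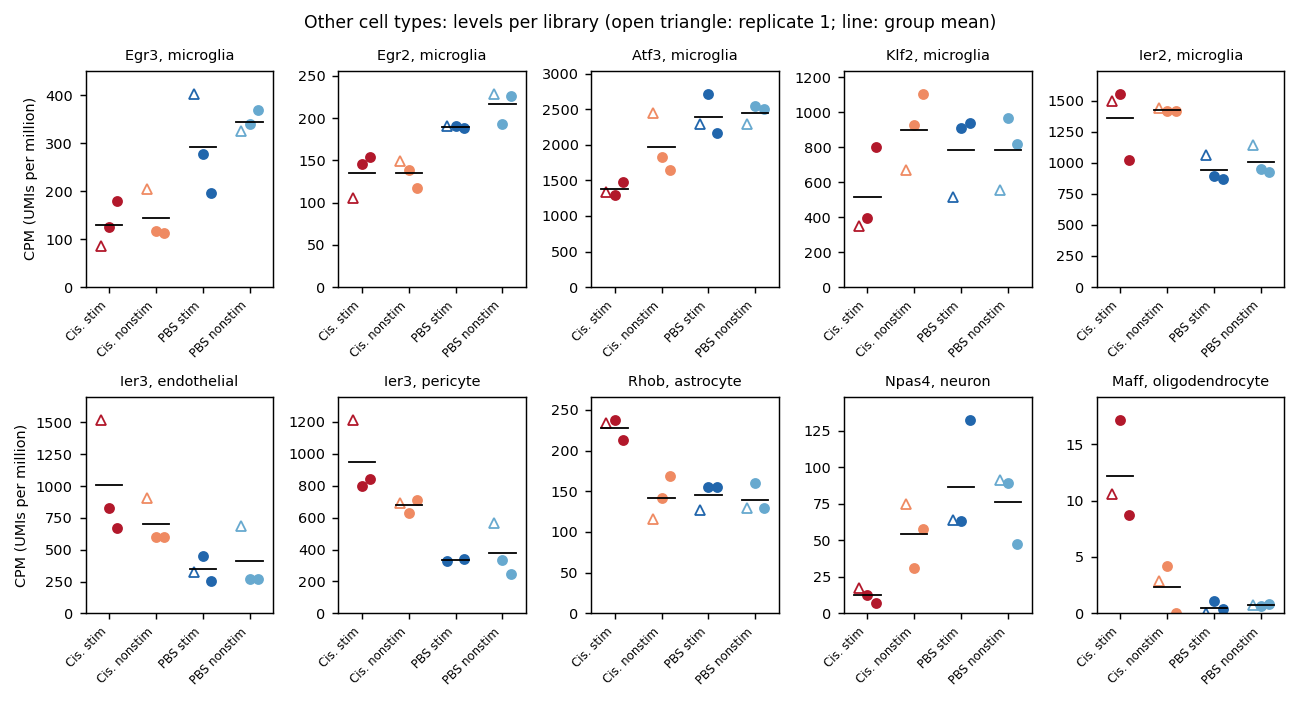
Level (CPM) per library of immediate early genes called in microglia, endothelium, pericytes, astrocytes, neurons or, for Maff, oligodendrocytes, with replicate 1 as open triangles and the group mean as a line. Egr3 in microglia reads 86.4 to 205 CPM in the 6 cisplatin libraries and 195 to 403 CPM in the 6 PBS libraries, and Npas4 in Cisplatin stim neurons 6.87 to 17.5 CPM.

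Stimulation itself moved few of these genes. In Cisplatin stim against Cisplatin nonstim mice, 1 of 234 pairs was called higher and 1 lower, against 0.145% and 0.0504% of 69488 pairs of any gene. Klf2, a factor that keeps vascular and immune cells quiescent, had 351, 395 and 799 CPM in Cisplatin stim microglia, against 668, 928 and 1105 CPM in Cisplatin nonstim microglia. The groups overlapped through Cisplatin stim replicate 3. The log2 fold change was -0.82 ± 0.16 (edgeR adjusted p = 0.0341, 1 of 31 genes against 0.0303% of all called lower), and it was not called in replicates 2 and 3 alone (adjusted p = 0.121) or without any of 6 libraries (up to 0.243, without Cisplatin nonstim replicate 1). Maff in oligodendrocytes had 10.6, 17.2 and 8.76 CPM in Cisplatin stim and 2.85, 4.23 and 0 CPM in Cisplatin nonstim libraries. It was called higher (2.15 ± 0.50, edgeR adjusted p = 0.0394, 1 of 30 genes against 0.723% of all), a call lost without any of 8 libraries, with adjusted p up to 0.212 (without Cisplatin stim replicate 2). Both calls stayed with the covariate.

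The genes that were high in Cisplatin nonstim oligodendrocytes were not called between stimulated and nonstimulated cisplatin mice. Dusp1 had 112, 333 and 270 CPM in Cisplatin stim oligodendrocytes and Nr4a1 32.3, 61.5 and 57.2 CPM, with replicate 1 the lowest for both. Their log2 fold changes against Cisplatin nonstim were -0.50 and -0.68 (edgeR adjusted p = 0.503 and 0.136). Of the 30 genes tested, 27 had log2 fold changes below 0, with a median of -0.53 against 0.0090 over all genes. This comparison shares the Cisplatin nonstim libraries with the one above, so the 2 sets of values are not independent.

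In PBS stim against PBS nonstim mice edgeR called none of the 234 pairs, and 0% of 69488 pairs of any gene, with 11 pairs at an unadjusted p under 0.05 and 0 called by DESeq2. The 11 were 6 of 30 in oligodendrocytes (291 of 10094 genes of any kind) and 2 of 23 in astrocytes (251 of 10163). The rest were 2 of 16 in choroid plexus (116 of 7952) and 1 of 30 in endothelium (324 of 8145). Junb in oligodendrocytes was among the smallest p, with 352, 317 and 170.1 CPM in PBS stim and 203, 138 and 195 CPM in PBS nonstim libraries, a log2 fold change of 0.64 ± 0.25. Fos in microglia had 3668, 4446 and 4400 CPM in PBS stim and 4134, 4907 and 4663 CPM in PBS nonstim libraries. In neurons, where 23 genes were tested, none reached an unadjusted p under 0.05, against 104 of 6561 genes of any kind. The effects of stimulation with and without cisplatin were compared directly as well. That test called 0 of the 234 pairs (0 also by DESeq2), against 0.0245% of 69488 pairs of any gene called. At an unadjusted p under 0.05 there were 36 of the 234. Oligodendrocytes held 16 of those 36, from 30 genes tested, against 817 of 10094 genes of any kind there. Microglia held 8 of 31, against 513 of 9903, and each other type held fewer. In oligodendrocytes Nr4a1 had the smallest p (difference -1.0 ± 0.29, edgeR adjusted p = 0.295), then Arc (-0.97 ± 0.29, adjusted p = 0.321) and Junb (-1.18 ± 0.36, adjusted p = 0.324).

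More pairs were called between replicate 1 and replicates 2 and 3 than in any treatment comparison. That comparison sets up to 4 libraries against 8, and each treatment comparison up to 3 against 3, so the counts are not on equal terms. The replicate 1 libraries differ from the others in mice per library and in the prefix of the library name, and every group has both kinds. Adjusted for group, 67 of 234 pairs were called higher in replicate 1 and 10 lower, which covers 26 of the 35 genes, against 4.69% and 3.91% of 69488 pairs of any gene. Of the 77, 28 held with each library left out in turn and 28 with the covariate. With cells over 10% mitochondrial UMIs left out, 50 of the 77 stayed called and 22 did not, among them Fos, Jun and Egr1 in microglia, while the other 5 were not tested, and 67 pairs were called in all. Mice per library and library name prefix cannot be told apart.

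Endothelium led, with 20 of 30 genes higher and none lower, against 2.46% of all genes. They were Socs3, Nr4a1, Atf3, Nr4a2, Junb, Ier5, Gadd45g, Gadd45b, Egr1, Ier2, Zfp36l1, Fos, Egr3, Ier3, Jun, Klf10, Dusp1, Jund, Klf4 and Zfp36. Socs3 in endothelium had 152, 165, 121 and 116 CPM in the 4 replicate 1 libraries, against 26.1 to 84.9 CPM (median 48.0) in the 8 others. Atf3 in endothelium had 427, 480, 455 and 457 CPM in replicate 1, against 54.4 to 318 CPM (median 119) in replicates 2 and 3. Neither gene's groups overlapped, with log2 fold changes of 1.58 and 1.88 (edgeR adjusted p = 4.00e-07 and 9.88e-06). Nr4a1 in endothelium had 375, 551, 535 and 540 CPM in replicate 1, against 137 to 268 CPM (median 229) in replicates 2 and 3 (1.31, edgeR adjusted p = 7.39e-06).

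Microglia were split, with 8 of 31 genes higher in replicate 1 (Gadd45b, Junb, Maff, Socs3, Ier5, Jund, Ier3 and Ier2) and 7 lower (Dusp6, Klf2, Dusp1, Egr1, Jun, Fos and Zfp36l1), against 7.66% and 4.27% of all genes. Gadd45b, a gene of the DNA damage and demethylation response, had 444, 346, 254 and 235 CPM in replicate 1 microglia, against 116 to 190 CPM (median 150) in replicates 2 and 3 (log2 fold change 1.09, edgeR adjusted p = 7.14e-07). Dusp6, the phosphatase of ERK, had 176, 265, 246 and 254 CPM in replicate 1 microglia, against 353 to 429 CPM (median 383) in replicates 2 and 3 (-0.62, edgeR adjusted p = 4.29e-05). Egr1 was lower in replicate 1 microglia (2036 to 3104 CPM against 3193 to 4113 CPM; -0.32, edgeR adjusted p = 0.0186) and higher in replicate 1 endothelium (843 to 1040.0 CPM against 320.3 to 713 CPM; 1.04, adjusted p = 9.85e-05). Klf2 in microglia (-0.61, edgeR adjusted p = 0.00206) and Dusp1 in microglia (-0.37, adjusted p = 0.0119) fell with overlapping groups. Of the 29 genes tested in both types, 28 had the larger log2 fold change in endothelium.

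**Figure D5:**
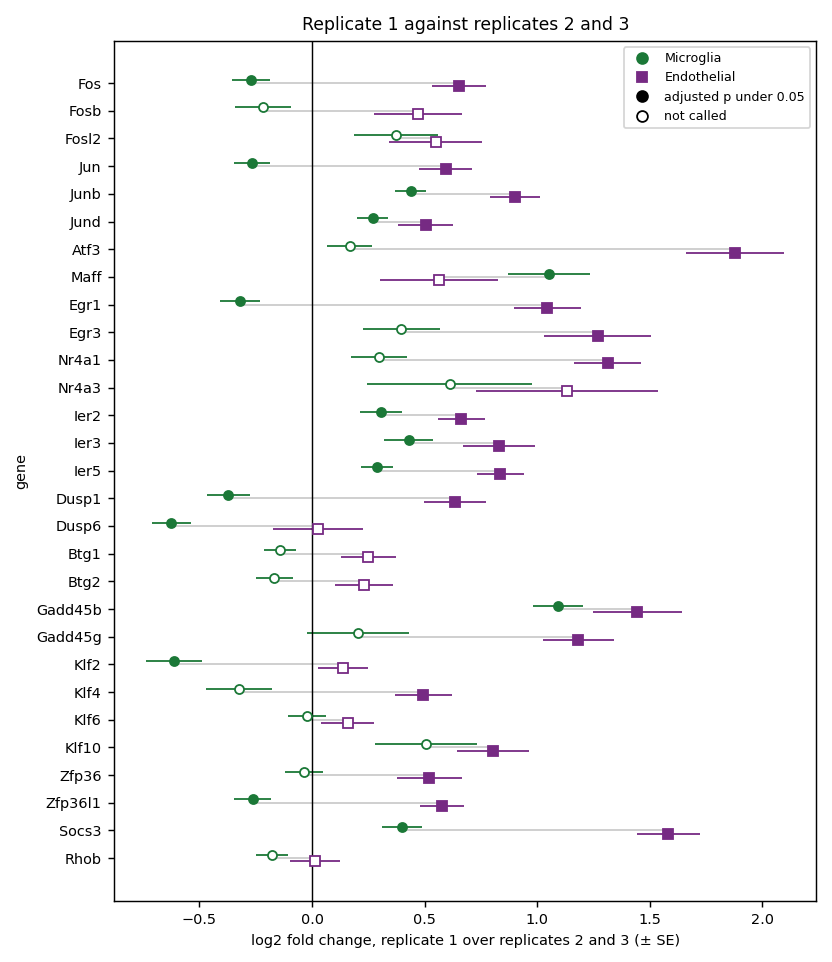
Log2 fold change of replicate 1 over replicates 2 and 3, with its standard error, for the 29 genes tested in both microglia (circles) and endothelium (squares), filled where the adjusted p was under 0.05. Fos, Jun, Egr1, Dusp1 and Zfp36l1 are filled on opposite sides of 0 in the 2 cell types.

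In most other types the calls were higher in replicate 1. Astrocytes had 12 of 23 genes higher, led by Egr1 (1.73, edgeR adjusted p = 0.000115) and followed by Zfp36, Junb, Fos, Nr4a1, Ier5, Nr4a2, Socs3, Klf4, Jun, Dusp6 and Dusp1, and 2 lower, Gadd45g and Btg1, against 9.96% and 12% of all genes. Gadd45g, a growth arrest gene, had 107, 46.4, 84.6 and 94.0 CPM in replicate 1 astrocytes, against 98.5 to 168 CPM (median 123) in replicates 2 and 3. OPC had 9 of 23 higher against 2.21% of all genes, namely Egr1, Nr4a1, Ier3, Klf4, Fos, Fosb, Ier2, Socs3 and Junb. Oligodendrocytes had 11 of 30 higher against 7.77%, namely Nr4a2, Gadd45b, Ier5, Nr4a3, Atf3, Klf10, Socs3, Egr3, Ier3, Zfp36l1 and Klf2. Choroid plexus had 5 of 16 higher against 0.252%, namely Junb, Zfp36, Egr1, Jun and Jund. Junb in choroid plexus had 51.0, 87.0, 49.8 and 32.4 CPM in replicate 1, against 4.76 to 12.5 CPM (median 9.97) in replicates 2 and 3 (2.48, edgeR adjusted p = 0.000245). Neurons (Junb, 1 of 23 against 3.54%) and pericytes (Ier5, 1 of 29 against 0.349%) had 1 call each. In immune cells Btg1 was lower (1 of 29 against 1.71%), and cluster 15, the one with high levels of the 35 genes, was 7.14 to 25.9% of immune cells in replicate 1 libraries and 43.8 to 94.1% in the others. Its part was not tested.

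Other genes of the same response were counted from 4 lists. Of 34 other rapidly induced genes, 22 passed the filter in oligodendrocytes, and 8 of them rose in Cisplatin nonstim against PBS nonstim mice, against 3.33% of all genes. They were led by Csrnp1 (log2 fold change 1.35, edgeR adjusted p = 0.00248) and Id1 (1.90, adjusted p = 0.00552). Between Cisplatin stim and PBS stim mice 7 of the 22 rose, against 7.03% of all genes, led by Klf9, a target of glucocorticoids and thyroid hormone (1.13, edgeR adjusted p = 2.42e-05), and Sgk1, a kinase that glucocorticoids induce (1.92, adjusted p = 0.00026). Endothelium gained 6 of 29 in that comparison, against 1.69%, led by Ccn2 (2.83, edgeR adjusted p = 0.000221) and Id2 (1.37, adjusted p = 0.000426). Over the 9 types the list had 12 of 194 pairs higher and 0 lower in the nonstimulated comparison, against 0.937% and 0.707% of pairs of any gene. It had 21 higher and 3 lower in the stimulated one, against 2.16% and 1.73%. Between Cisplatin stim and Cisplatin nonstim mice it had 3 higher and 0 lower, against 0.145% and 0.0504%. In replicate 1 it had 30 higher and 11 lower, against 4.69% and 3.91%. None of the 4 lists had a call by edgeR in PBS stim against PBS nonstim mice or in the direct comparison of the stimulation effects.

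The same background shares apply to the other lists. Of the 154 pairs of 22 upstream regulators, 0 rose and 1 fell in the nonstimulated comparison and 1 rose and 1 fell in the stimulated one, with Mef2a lower in oligodendrocytes in both (-0.44 and -0.68, edgeR adjusted p = 0.0184 and 0.000492). In replicate 1, 6 of the 154 were higher, led by Map2k1 in neurons (1.41, edgeR adjusted p = 0.000291), and 4 were lower, shares near the background of 4.69% and 3.91%. Among 12 genes of the neuronal late response (36 pairs), 0 were called without stimulation and Rgs2 was lower in microglia with it (-0.54, edgeR adjusted p = 0.0372). In replicate 1, Scg2 in neurons was higher, and Rheb in astrocytes and Rgs2 in microglia were lower. Of 93 pairs of heat shock and cytokine genes known from tissue dissociation, 0 rose and 3 fell in the nonstimulated comparison (Hspb1 in endothelium, Hsph1 and Dnajb1 in microglia). In the stimulated one 2 rose, Cxcl2 and Tnf in microglia (1.19 and 0.92, edgeR adjusted p = 0.000492 and 0.0159). The 4 that fell were Hspb1 and Hspd1 in endothelium and Hspa8 in microglia and oligodendrocytes. Between Cisplatin stim and Cisplatin nonstim mice 1 rose, Cxcl2 in microglia (0.998, edgeR adjusted p = 0.0182), and 0 fell. In replicate 1 the same list had 29 of 93 pairs higher and 1 lower, against 4.69% and 3.91%, with 6 of 10 genes higher in endothelium (2.46% of all genes), 8 of 18 in microglia (7.66%) and 5 of 9 in oligodendrocytes (7.77%). Cxcl2, a chemokine, was 2.15 higher in microglia on the log2 scale (edgeR adjusted p = 1.66e-10) and Hspa1b, an inducible chaperone, 2.12 higher in oligodendrocytes (adjusted p = 4.27e-07).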

How the data were processed

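Hippocampal cells were captured with 10x 3' v3.1 chemistry at a target of 5000 cells per library. The submitters' processing notes name Cell Ranger 5.0.0, Scanpy and mm10 without an annotation release. The deposited table holds UMI counts per gene and cell, and the authors' table of cells gives cell type, cluster, percent mitochondrial UMIs and a total signal per cell. The deposited gene table gives a mean score per gene on an unstated scale, which was not tested. No cell was marked as a doublet. UMIs were added up within each library and type (at least 10 cells) and scaled to CPM. edgeR 4.0.16 (R 4.3.3) fitted group and library name prefix over all 12 libraries in 9 types, with TMM factors, filterByExpr and quasi-likelihood tests, Benjamini-Hochberg adjusted over all genes of a type and comparison at 0.05. The fit was tested on simulated data. DESeq2 1.42.0 was an alternative, and limma 3.58.1 compared effects between cell types.

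The 35 genes and the other lists were chosen with earlier results of these data known. Every called gene is named with its cell type. Values in every library are given for up to 4 called pairs with the smallest adjusted p per direction of a comparison, and for Fos, Jun, Egr1, Nr4a1, Arc and Npas4 in the type of their highest median. Of the other lists, called genes of small adjusted p are named for some types and comparisons, not for all. Replicate numbers were checked for pairing by correlating the deviations of same-numbered libraries. All 3 correlations passed 0.1 for Cisplatin nonstim and PBS nonstim in oligodendrocytes (0.33, 0.214 and 0.187) and microglia (0.336, 0.192 and 0.118), for Cisplatin stim and PBS stim in microglia (0.196, 0.107 and 0.141), for the cisplatin groups in both types, and for the PBS groups in 8 of 9 types. The deviations kept the difference between replicate 1 and replicates 2 and 3, so these correlations cannot tell pairing from that difference. Same-numbered libraries were treated as pairs there, and values with the number as a block are given where they change a call.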

Additional observations from a re-analysis of the deposited data

Results flagged for a closer look

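For 13 results the effect of a comparison differed between 2 cell types, by limma on the within-library difference of log2 CPM with Benjamini-Hochberg adjustment over all genes tested. In Cisplatin stim against PBS stim mice, the effect on Fosb in microglia minus that in endothelium was -1.75 (adjusted p = 0.0275), and the effect on Maff in microglia minus that in oligodendrocytes was -3.10 (adjusted p = 0.0276). These were 1 of 29 of the immediate early genes against 11 of 7329 genes of any kind, and 1 of 28 against 154 of 8411.

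The other 11 concern replicate 1 against replicates 2 and 3. The effect in microglia minus that in endothelium was -1.71 for Atf3 (adjusted p = 0.0299), -1.0 for Dusp1 (0.0323), -1.39 for Egr1 (0.0210), -0.93 for Fos (0.0246), -0.85 for Jun (0.0339), -1.14 for Socs3 (0.0210) and -0.84 for Zfp36l1 (0.0332). These were 7 of the 29 genes tested in both types, against 49 of 7329 genes of any kind. The effect in microglia minus that in astrocytes was -1.12 for Dusp6 (adjusted p = 0.0113), -1.93 for Egr1 (0.0270) and -1.41 for Fos (0.0411), 3 of 22 against 903 of 8302 genes. For Gadd45g the effect in astrocytes minus that in endothelium was -1.81 (adjusted p = 0.0118), 1 of 23 against 323 of 7290 genes. The causes of these differences were not tested.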

How the results depend on the processing

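No called pair changed sign under any alternative run. In Cisplatin nonstim against PBS nonstim mice the 16 called pairs became 10 with DESeq2, 32 with no filter on low counts, 2 with no term for the library name prefix (batch), 33 in replicates 2 and 3 alone and 1 with the ribosomal RNA-like share as a covariate. In Cisplatin stim against PBS stim mice the 18 became 42 with no filter, 4 with no batch term, 47 in replicates 2 and 3 alone and 4 with the covariate. In Cisplatin stim against Cisplatin nonstim mice the 2 became 29 with no filter, 0 with no batch term and 4 in replicates 2 and 3 alone. The 0 in PBS stim against PBS nonstim mice became 6 with no filter. The 0 in the direct comparison of stimulation effects became 20 with no filter, 1 in replicates 2 and 3 alone and 1 with the covariate. The 77 between replicate 1 and replicates 2 and 3 became 30 with the covariate. The causes of these changes were not tested. Each count is of pairs of the immediate early genes alone, without the share of all genes called in the same run. A change in a count therefore does not show whether these genes changed more than genes of any kind.

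Leaving out each library in turn gave 4 to 22 calls in Cisplatin nonstim against PBS nonstim mice (4 without Cisplatin nonstim replicate 2) and 7 to 30 in Cisplatin stim against PBS stim mice (30 without Cisplatin stim replicate 1). It gave 0 to 5 in Cisplatin stim against Cisplatin nonstim mice, 0 to 0 in PBS stim against PBS nonstim mice, 0 to 1 for the stimulation effects and 47 to 98 for replicate 1. With cells over 10% mitochondrial UMIs left out the counts were 17, 20, 2, 0, 0 and 67, in the order above. With a replicate block the 16 calls without stimulation became 15, and the other treatment counts stayed at 18, 2, 0 and 0. All these counts are likewise given without the share of all genes called in the same run. Where same-numbered libraries were treated as pairs, the block ended the calls of Jun in oligodendrocytes without stimulation and Egr2 in microglia with it. It changed no other call there but Ier3 in microglia with stimulation. Elsewhere the block ended Socs3 in endothelium without stimulation (edgeR adjusted p = 0.0516) and Btg1 in oligodendrocytes with it (0.0632), and added Ier3 (0.0387) and Maff (0.0497) in endothelium. Low counts limit the precision for Npas4 in neurons and for Maff and Socs3 in oligodendrocytes.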
